A study of Mus musculus with 20 samples.

Results

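The genes described here are the mouse transporters of organic ions, bile acids and monocarboxylates, chosen by symbol alone: the families Slc10, Slc16, Slc17, Slc22, Slc47 and Slco and the pair Slc51a and Slc51b. Of the 34255 genes in the count table, 74 carried such a symbol, and all 74 were placed on GRCm38 by the GENCODE M21 annotation. By role they were 15 organic anion transporters, 9 organic cation, carnitine and proton-antiport (MATE) transporters, 3 other Slc22 genes, 9 Slc17 genes, 15 organic anion transporting polypeptides (Slco), 14 monocarboxylate transporters (Slc16) and 9 bile acid transporters. The question was how the mRNA levels of these genes varied between the microvascular compartments of the renal cortex and whole kidney.

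The samples were 20 libraries of 3′ mRNA counts from healthy wild-type male C57BL6/OlaHsd mice, young adults kept without treatment, with 4 libraries in each of 5 groups. Arterioles, glomeruli and post-capillary venules were laser microdissected by their shape on hematoxylin-stained cryosections, peritubular capillaries on a section stained with an endothelium-binding lectin, and whole kidney sections were taken for comparison. Slides were made per mouse, so libraries of different groups can come from the same mouse, and the main fits did not pair them. Microdissected pieces were not sorted, so each compartment could hold wall cells, circulating cells and neighbouring tubule beside endothelium. Library totals ranged from 4639090 to 12283098 counts. According to the labels, samples within a group are biological replicates; libraries are named here by the number in their column (93, 96, 98 or 100), and 4 values in a row are in that order. The column of capillary 96 carries the added letters WH, whose meaning the sources do not give. Without it 19 members were called between arterioles and capillaries and 15 between glomeruli and capillaries, against 23 and 16 with it. Of all genes, 8.35% and 3.35% were called without it, against 11.2% and 4.47% with it. Levels are counts per 1000000 counts of a library (CPM) scaled by TMM, and since a 3′ count is not divided by gene length, each gene was compared with itself across groups and not with other genes.

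These carriers are best known from the proximal tubule, where basolateral uptake from the peritubular blood and apical exit into the urine together secrete drugs, toxins and urate, and where monocarboxylates and urate are also recovered from the filtrate. Endothelial cells use a smaller set of carriers, of which the prostaglandin transporter Slco2a1 is well studied. In a bulk sample, fewer cells of a type and less RNA per cell cannot be told apart.

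The 74 genes together took between 1.15 and 1.43% of the counts in peritubular capillaries, between 0.750 and 0.850% in whole kidney, between 0.565 and 0.610% in post-capillary venules, between 0.213 and 0.243% in glomeruli and between 0.0970 and 0.423% in arterioles. Arterioles and glomeruli overlapped, and the other 3 groups stood apart from each other and from both. A list of 16 proximal tubule markers, all with counts in every group, followed the same order, with 7.07 to 9.02% of counts in peritubular capillaries, 4.87 to 5.17% in whole kidney, 2.87 to 3.38% in venules, 0.854 to 1.26% in glomeruli and 0.629 to 1.61% in arterioles. Its part in the results below was not tested. A list of 12 pan-endothelial markers ran the other way and was lowest in whole kidney (0.0502 to 0.0585%) and peritubular capillaries (0.0490 to 0.0755%), whose ranges overlapped. That list reached 0.0637 to 0.129% in venules, 0.286 to 0.366% in arterioles and 0.344 to 0.436% in glomeruli.

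**Figure D1:**
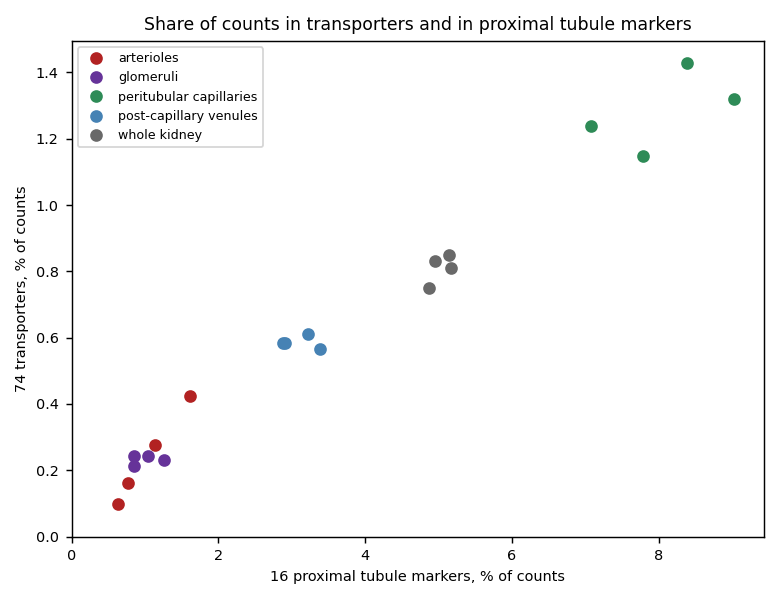
Share of each library's counts in the 74 transporters (vertical axis, %) against its share in 16 proximal tubule markers (horizontal axis, %), 1 point per library. Peritubular capillaries lie at 1.15 to 1.43% and arterioles at 0.0970 to 0.423%, and the arteriole library with most transporter counts is also the one with most tubule marker counts.

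A gene was called where it differed by more than 1 on the log2 scale in either direction with a false discovery rate (FDR) under 0.05, in edgeR's quasi-likelihood test with adjustment over all genes tested. Of the 74 members, 51 passed the count filter in the fit of all 20 libraries and 44 in the fit of the 16 microdissected ones. A further 15 had counts but were tested in neither fit, and 8 had none at all. In all, 28 members were called in at least 1 of the 10 comparisons, 24 of them with their highest mean in peritubular capillaries. Of these 28, 25 were called lower in arterioles or glomeruli than in capillaries, so the high capillary mean is partly set by how they were chosen. Of the 51 tested members, 29 had their highest mean in capillaries. The matching shares of all genes are not given here.

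In arterioles, 17 of 51 tested members were called lower than in whole kidney, against 5.50% of all 13813 genes tested, and 1 was called higher, against 5.78%. In glomeruli, 10 of 51 were called lower (1.47% of all genes) and 1 higher (1.59%). The median log2 difference of the members was -2.22 in arterioles and -1.94 in glomeruli, where the median of all genes was 0.22 and 0.25. The single member called higher was Slco2a1 in both comparisons, which share the whole kidney libraries.

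Against peritubular capillaries the counts were larger. In arterioles 22 of 44 members were called lower (4.96% of all 12179 genes) and 1 higher (6.22%), with a members' median of -2.95 beside 0.20 for all genes. In glomeruli 15 of 44 were called lower (2.27%) and 1 higher (2.20%), with a median of -3.02 beside 0.06. Slco2a1 was again the member called higher in each, and both comparisons share the capillary libraries. Against venules, arterioles had 3 of 44 members called lower (1.86%) and 1 called higher (2.50%), and glomeruli had 5 called lower (0.731%, with 0.493% of all genes higher). These small counts rested on single libraries: leaving out venule 100 left 2 calls in arterioles, and leaving out venule 100 or any 1 glomerular library left 2 in glomeruli.

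**Figure D2:**
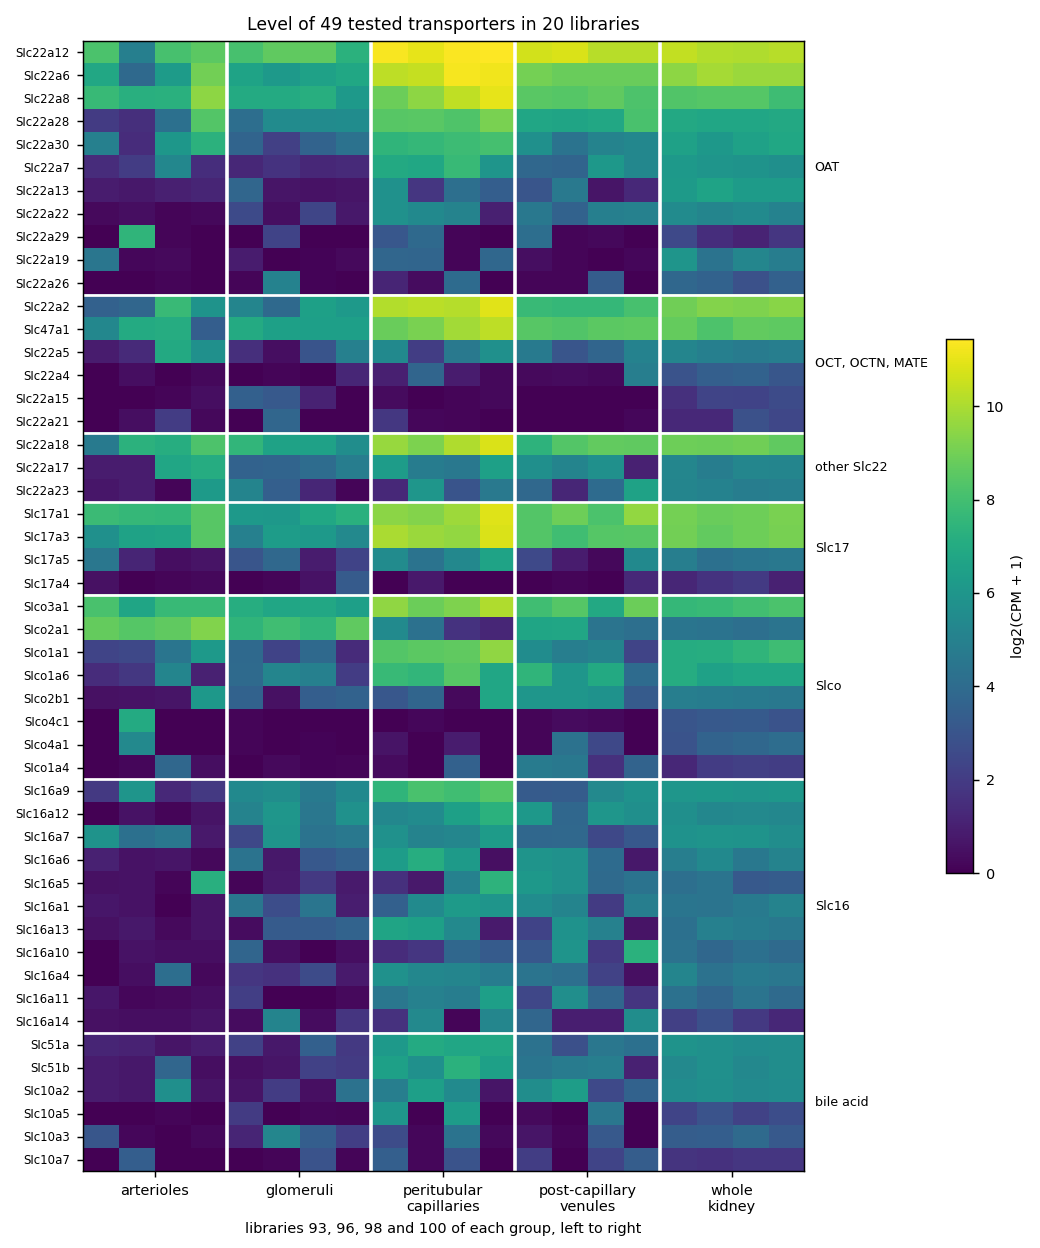
Level of 49 of the 51 tested transporters (rows, by role and then by mean level) in the 20 libraries (columns, 4 per group), as log2(CPM + 1). Most of the abundant genes are brightest in the 4 peritubular capillary libraries and darkest in arterioles and glomeruli, Slco2a1 is brightest in arterioles and glomeruli, and many of the dimmer genes light up in 1 library of a microdissected group.

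Arterioles and glomeruli differed in 1 member of 44, Slc16a12, which was lower in arterioles (0.862% of all genes were lower and 1.31% higher); without arteriole 96, 2 members were called. Peritubular capillaries and venules also differed in 1 member, Slco1a1, higher in capillaries (0.0739% of all genes were higher and 0.312% lower), and that call was lost when any 1 of the 8 libraries was left out. No member was called between peritubular capillaries and whole kidney, where 0.0869% of all genes were called higher and 0.00724% lower, or between venules and whole kidney, where the shares were 0.203% and 0.0217%. At an unadjusted p under 0.05 edgeR had 16 of 51 members in the first and 9 of 51 in the second. The shares of all genes at that p are not given here, so nothing can be read from these counts about the members. DESeq2 called 1 in each, beside 2.06% and 1.27% of all genes. With only the 8 libraries compared in the fit, 13 members were called higher and 2 lower in capillaries, beside 2.47% and 8.39% of all genes. For venules that fit called 9 lower, beside 5.92% of all genes lower and 2.45% higher. In these 2 comparisons the members' medians were 1.01 and -0.24, beside 0.18 and 0.19 for all genes.

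Sequences upstream of the RefSeq start are shown for the 3 called members that matched the HNF1 palindrome described next with at most 2 mismatches and, for comparison, for Slc22a6 and Slco2a1, since tubule transporters that move together are known targets of HNF1, a homeodomain factor of proximal tubule cells that binds a palindrome of GTTAAT, 1 free base and ATTAAC. RefSeq promoters (GRCm38.p6) were found for 58 of the 74 members by symbol, and the 250 bases before each start were searched. Where a gene had several RefSeq entries, the entry that matched best was counted, for members and for all genes alike. The palindrome is its own reverse complement, so 1 pass covers both strands. With at most 2 mismatches it was found before 7 of the 58 members (12.1%) and before 392 of 27025 genes (1.45%). With at most 1 mismatch the shares were 1.72% and 0.226%, and with at most 3 they were 29.3% and 8.81%. The 7 members were Slc10a2, Slc17a1, Slc17a2, Slc17a6, Slc22a22, Slc22a29 and Slc22a30, of which Slc17a6 had no count in any library and Slc17a2 had 8 in all. Only Slc17a1, Slc22a22 and Slc22a30 were called, which is 3 of the 20 called members with a promoter, beside 4 of 38 others; Slc22a22 had its highest mean in whole kidney and not in capillaries. The single arm GTTAAT or its complement ATTAAC on its own, which also lies within the palindrome, stood before 6 of the 58 (10.3%) and 7.49% of genes. A match is a description of the letters and not evidence of binding. Capitals mark the best match to the palindrome in Slc17a1, Slc22a22 and Slc22a30 and the exact single arm in Slc22a6; Slco2a1 held neither within these limits.
Slc17a1 (chr13:23870023-23870272, plus strand): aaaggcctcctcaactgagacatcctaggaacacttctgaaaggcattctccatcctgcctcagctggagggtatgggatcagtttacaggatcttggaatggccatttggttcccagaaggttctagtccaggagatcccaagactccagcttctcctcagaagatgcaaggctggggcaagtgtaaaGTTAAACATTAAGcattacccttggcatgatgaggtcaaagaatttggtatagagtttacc
Slc22a22 (chr15:57265162-57265411, minus strand): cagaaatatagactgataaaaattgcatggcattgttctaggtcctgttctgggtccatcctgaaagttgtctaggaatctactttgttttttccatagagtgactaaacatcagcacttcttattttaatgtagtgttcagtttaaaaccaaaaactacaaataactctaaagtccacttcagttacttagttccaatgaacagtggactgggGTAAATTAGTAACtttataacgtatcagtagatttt
Slc22a30 (chr19:8405106-8405355, minus strand): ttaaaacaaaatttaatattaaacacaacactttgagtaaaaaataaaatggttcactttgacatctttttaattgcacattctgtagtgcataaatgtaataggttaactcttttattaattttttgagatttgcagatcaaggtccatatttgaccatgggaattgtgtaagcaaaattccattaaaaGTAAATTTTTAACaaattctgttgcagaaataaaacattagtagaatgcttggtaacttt
Slc22a6 (chr19:8617746-8617995, plus strand): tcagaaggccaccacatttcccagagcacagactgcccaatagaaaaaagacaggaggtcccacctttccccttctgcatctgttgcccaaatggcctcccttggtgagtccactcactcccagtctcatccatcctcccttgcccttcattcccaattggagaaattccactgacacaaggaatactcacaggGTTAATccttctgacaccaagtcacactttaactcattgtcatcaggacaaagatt
Slco2a1 (chr9:103008237-103008486, plus strand): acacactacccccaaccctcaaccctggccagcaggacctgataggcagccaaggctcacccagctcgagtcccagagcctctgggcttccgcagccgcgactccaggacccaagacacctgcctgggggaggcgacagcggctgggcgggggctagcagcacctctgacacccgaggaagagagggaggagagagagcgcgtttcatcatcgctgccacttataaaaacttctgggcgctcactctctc

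The last base of each run lies next to the RefSeq start of the entry shown. Slc17a1 and Slc22a22 had 2 RefSeq entries each, and the entry with the fewest mismatches to the palindrome was picked. The positions that follow belong to the entry shown. The match lay 61 to 49 bases before the start of Slc17a1, 60 to 48 before that of Slc22a30 and 36 to 24 before that of Slc22a22, and the single arm of Slc22a6 lay 56 to 51 bases before its start. The RefSeq start lies inside the gene as GENCODE M21 draws it for Slc22a22 (212464 bases downstream of that annotation's first base), Slco2a1 (19775 bases), Slc17a1 (2523 bases) and Slc22a30 (6 bases), and 43 bases upstream of it for Slc22a6.

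Organic anion transporters of the Slc22 family carry anions such as urate, prostaglandins and drugs. The basolateral carriers Slc22a6 and Slc22a8 do so in exchange for dicarboxylates inside the cell. Of 15 members, 11 were tested against whole kidney and 8 were called in some comparison, all of them lower in arterioles or glomeruli than in capillaries or whole kidney. The basolateral carrier Slc22a6 (OAT1; ENSMUSG00000024650, chromosome 19, 8618039 to 8628299, plus strand) had 1243, 1363, 2509 and 2348 CPM in the 4 peritubular capillary libraries and 723, 957, 831 and 828 in whole kidney. Venules had 522, 457, 449 and 458 CPM, arterioles 117, 14.2, 75.9 and 509.9 and glomeruli 97.4, 70.5, 91.2 and 112. Every capillary library lay above every library of the other groups, and arteriole 100 was the only arteriole or glomerular library in the venule range. Glomeruli were lower than capillaries (log2 fold change -4.33 ± 0.63 (SE), FDR 1.29e-05), than whole kidney (log2 fold change -3.17 ± 0.55 (SE), FDR 3.20e-04) and than venules (log2 fold change -2.35 ± 0.58 (SE), FDR 0.0282), the last being lost without any 1 of the glomerular libraries or without venule 93 or venule 100. Arterioles were lower than capillaries (log2 fold change -3.37 ± 0.60 (SE), FDR 1.57e-04) and than whole kidney (log2 fold change -2.22 ± 0.53 (SE), FDR 0.00483); without arteriole 100 these were -4.76 and -3.61.

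Slc22a8 (OAT3; ENSMUSG00000063796, chromosome 19, 8591254 to 8611835, plus strand), the other main basolateral anion carrier, lies next to Slc22a6, 6203 bases away. Its level was 469, 719, 1299 and 2042 CPM in capillaries, 323, 343, 337 and 232 in whole kidney and 364, 343, 401 and 303 in venules. In glomeruli it was 127, 126, 142 and 69.8 CPM and in arterioles 206, 147, 154 and 726. Arteriole 100 exceeded every whole kidney library, and the other 3 arteriole libraries lay below all of them. Glomerular levels were below those of capillaries (log2 fold change -3.29 ± 0.55 (SE), FDR 1.16e-04); arterioles were too (log2 fold change -1.87 ± 0.52 (SE), FDR 0.016), although the groups overlapped and that call was lost without arteriole 98 or capillary 100 (FDR up to 0.102). Without arteriole 100 the arteriole difference was -2.75 (FDR 5.73e-04).

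The apical urate carrier Slc22a12 (URAT1; ENSMUSG00000061742, chromosome 19, 6535845 to 6543032, minus strand) lies within the bounds of Nrxn2 on the opposite strand, and the methods and labels do not state the strand setting used in counting. Capillaries had 2555, 2077, 2609 and 2773 CPM, venules 1625, 1786, 1174 and 1190.1 and whole kidney 1359, 1106, 1081 and 1190.3. Glomeruli had 279, 397, 403 and 156 CPM and arterioles 292, 29.8, 277 and 379. Here venules overlapped whole kidney, and both stood above all 8 arteriole and glomerular libraries. Arteriolar levels were below those of capillaries (log2 fold change -3.35 ± 0.48 (SE), FDR 4.92e-06), venules (log2 fold change -2.56 ± 0.47 (SE), FDR 4.82e-04) and whole kidney (log2 fold change -2.28 ± 0.42 (SE), FDR 2.95e-04). The glomerular level was below that of the same 3 groups, by log2 -3.02 ± 0.47 (SE, FDR 4.14e-05), -2.23 ± 0.46 (FDR 0.00502) and -1.94 ± 0.42 (FDR 0.00428).

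Slc22a22 (ENSMUSG00000022366, chromosome 15, 57243767 to 57477625, minus strand), a mouse carrier of prostaglandins, was barely counted in arterioles, with 5 counts over the 4 libraries (0.213, 0.322, 0.112 and 0.178 CPM). It reached 44.6, 35.8, 43.5 and 32.8 CPM in whole kidney, 22.8, 11.2, 29.8 and 31.2 in venules and 54.3, 42.04, 33.5 and 0.978 in capillaries. Glomeruli had 4.91, 0.332, 4.29 and 0.662 CPM. Whole kidney and venules were above every arteriole and glomerular library, and capillary 100 fell to the glomerular range. The difference between arterioles and whole kidney was called (log2 fold change -7.48 ± 1.78 (SE), FDR 0.00427), a 189.7-fold lower mean; that against capillaries (FDR 0.0289) was lost when arteriole 93, 98 or 100 or capillary 93 or 96 was left out (FDR up to 0.0612).

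The other 4 called organic anion transporters were Slc22a7 (OAT2), Slc22a13 (OAT10, an apical urate and nicotinate carrier), Slc22a28 and Slc22a30. Slc22a7 averaged 127 ± 62.1 CPM in capillaries, 59.6 ± 7.67 CPM in whole kidney and 1.64 ± 0.386 CPM in glomeruli (SD, n = 4 each), with its smallest FDR for glomeruli against whole kidney (0.00845). Slc22a13 averaged 81.1 ± 12.3 CPM in whole kidney and 0.939 ± 0.256 CPM in arterioles (FDR 0.0131). It overlaps Slc22a14 on the same strand by 16125 bases, so its reads could be ambiguous between these genes. Its 4 capillary libraries, at 53.8, 2.51, 16.9 and 9.58 CPM, all lay below the lowest whole kidney library at 73.6 CPM, opposite to most members, but that difference was not called (log2 fold change -1.97 ± 1.40 (SE), FDR 0.644) and was picked out after its values were seen. Slc22a28 averaged 399 ± 116 CPM in capillaries and 38.1 ± 14.5 CPM in glomeruli (FDR 0.0363), a call that leaving out any 1 of the 8 libraries removed (FDR up to 0.11). Slc22a30 averaged 218 ± 38.70 CPM in capillaries and 11.4 ± 6.27 CPM in glomeruli (FDR 0.0118), a call lost without glomerular 96 or 98 (FDR up to 0.0609). Slc22a26 to Slc22a30 are close relatives in 1 cluster on chromosome 19, so reads could be split between them.

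Organic cations enter tubule cells from the blood through carriers such as Slc22a2 (OCT2) and leave for the urine through the proton antiporter Slc47a1 (MATE1). Of 9 members of this group 7 were tested against whole kidney, and 3 were called, of which Slc22a2 and Slc47a1 are described. Slc22a2 (ENSMUSG00000040966, chromosome 17, 12584132 to 12628488, plus strand) was used by the study as a capillary marker chosen on these samples, so its high capillary level is not independent evidence. It had 1126, 1230.0, 1132 and 1937 CPM in capillaries and 498, 637, 605 and 671 in whole kidney. Venules had 212, 194, 194 and 272 CPM, glomeruli 35.6, 13.8, 88.2 and 68.6 and arterioles 10.9, 12.7, 212 and 58.2. The order was capillaries, whole kidney and venules without overlap, except that arteriole 98 lay among the venules. Lower levels in glomeruli were called against capillaries (log2 fold change -4.72 ± 0.72 (SE), FDR 2.64e-05) and whole kidney (log2 fold change -3.55 ± 0.63 (SE), FDR 4.31e-04), and likewise in arterioles (log2 fold change -4.21 ± 0.71 (SE), FDR 6.04e-05, and log2 fold change -3.04 ± 0.62 (SE), FDR 8.83e-04); without arteriole 98 the arteriole differences were -5.64 and -4.47.

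Slc47a1 (ENSMUSG00000010122, chromosome 11, 61343401 to 61378345, minus strand) had 458, 568, 915 and 1262 CPM in capillaries, 429, 305, 413 and 391 in whole kidney and 349, 322, 374 and 386 in venules. Glomeruli had 126, 90.2, 86.5 and 88.1 CPM and arterioles 38.6, 125, 135 and 9.82. Whole kidney and venules overlapped, and all 8 of those libraries were above all 8 arteriole and glomerular ones. The arteriolar level was below that of capillaries (log2 fold change -3.38 ± 0.62 (SE), FDR 2.21e-04), whole kidney (log2 fold change -2.32 ± 0.53 (SE), FDR 0.00299) and venules (log2 fold change -2.22 ± 0.59 (SE), FDR 0.0224), the last lost without arteriole 93 or venule 100. Glomerular levels were below those of capillaries (log2 fold change -3.03 ± 0.61 (SE), FDR 0.00119), and their call against whole kidney (FDR 0.0241) held in 2 of 8 fits with a library left out. Its paralog Slc47a2, 540 bases away, had 10 counts in all 20 libraries and was not tested.

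Slc22a18 (ENSMUSG00000000154, chromosome 7, 143473736 to 143499334, plus strand), an imprinted gene of the family, was the 1 called of 3 other Slc22 members. It had 825, 578, 1072 and 1748 CPM in capillaries, 477, 463, 496 and 394 in whole kidney and 165, 331, 414 and 398 in venules. Arterioles had 25.6, 164, 137 and 302 CPM and glomeruli 183, 96.7, 93.7 and 47.2. Capillaries stood above every other library, and venule 93 fell into the range of glomeruli and arterioles. The glomerular level was below that of capillaries (log2 fold change -3.33 ± 0.60 (SE), FDR 2.93e-04) and whole kidney (FDR 0.0129, lost without glomerular 100), and arterioles were lower than capillaries (log2 fold change -2.74 ± 0.59 (SE), FDR 0.00144).

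**Figure D3:**
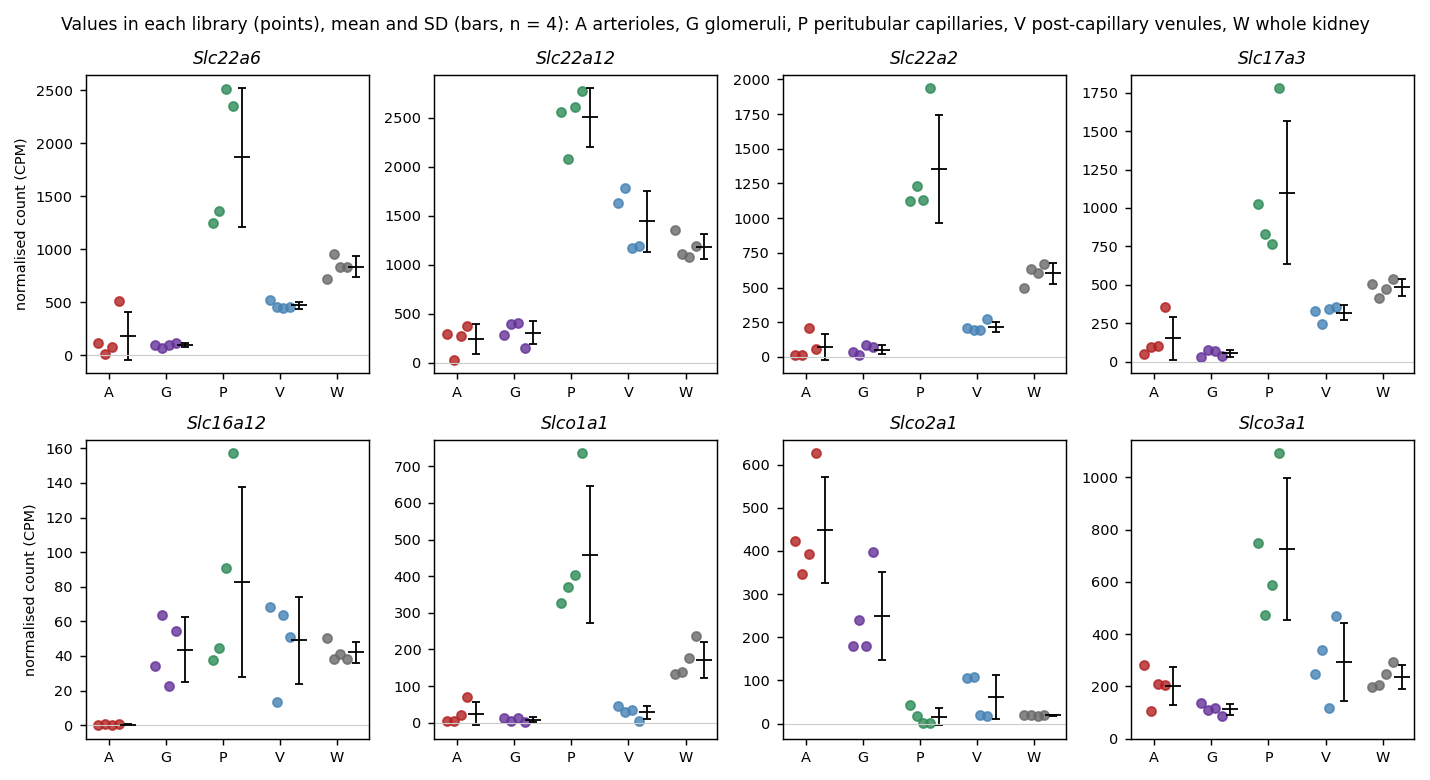
CPM in each library (points) with mean and SD (bars, n = 4) for 8 transporters; each panel has its own linear vertical axis. Slc22a6, Slc22a12, Slc22a2, Slc17a3, Slco1a1 and Slco3a1 are highest in peritubular capillaries, Slc16a12 is near 0 only in arterioles, and Slco2a1 is highest in arterioles (347 to 626 CPM).

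Slc17a1 and Slc17a3 carry urate and other anions across the apical membrane of the proximal tubule and lie 7033 bases apart on chromosome 13. They were the 2 called of 9 Slc17 members, of which 4 were tested against whole kidney. Slc17a3 (ENSMUSG00000036083, chromosome 13, 23839434 to 23860716, plus strand) had 1027, 829.8, 765 and 1779 CPM in capillaries and 509, 415, 475 and 541 in whole kidney. Venules had 331, 246, 340.3 and 354 CPM, arterioles 51.8, 95.5, 102 and 358 and glomeruli 30.4, 77.8, 71.1 and 41.03. Arteriole 100 was above every venule library, while its 3 companions were below them all. Lower levels in glomeruli were called against capillaries (log2 fold change -4.32 ± 0.59 (SE), FDR 5.46e-06), whole kidney (log2 fold change -3.14 ± 0.50 (SE), FDR 8.46e-05) and venules (log2 fold change -2.53 ± 0.55 (SE), FDR 0.0092), the last lost without glomerular 100. Lower levels in arterioles were called against capillaries (log2 fold change -2.85 ± 0.56 (SE), FDR 5.00e-04) and whole kidney (log2 fold change -1.67 ± 0.47 (SE), FDR 0.0187), the second lost without whole kidney 100; without arteriole 100 they were -3.73 and -2.55.

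Slc17a1 (ENSMUSG00000021335, chromosome 13, 23867750 to 23895730, plus strand) had 703, 634, 863 and 1885 CPM in capillaries, 330.0, 486, 294 and 777 in venules and 529, 455, 483 and 562 in whole kidney. Arterioles had 223, 194, 192 and 350.1 CPM and glomeruli 70.6, 68.3, 110.4 and 151. Arterioles were above every glomerular library here, which was not so for Slc17a3, though that difference was not called (FDR 0.151). Glomeruli were lower than capillaries (log2 fold change -3.35 ± 0.52 (SE), FDR 3.04e-05), whole kidney (log2 fold change -2.34 ± 0.43 (SE), FDR 7.42e-04) and venules (FDR 0.0114, lost without glomerular 93, 96 or 98 or venule 100). Arterioles were lower than capillaries (log2 fold change -2.09 ± 0.49 (SE), FDR 0.00394).

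The organic anion transporting polypeptides held both directions. Slco2a1, the prostaglandin uptake carrier (ENSMUSG00000032548, chromosome 9, 102988712 to 103096002, plus strand), had 424, 347, 393 and 626 CPM in arterioles and 179.6, 240.2, 181 and 397 in glomeruli. Venules had 105, 107, 20.4 and 17.1 CPM, whole kidney 20.7, 19.6, 17.2 and 20.3 and capillaries 43.6, 17.99, 2.22 and 1.37. All 8 arteriole and glomerular libraries lay above all 12 others, the venules split into a pair above and a pair at the whole kidney level, and the capillaries ran from above whole kidney to near 0. Arterioles were 23.02-fold higher than whole kidney (log2 fold change 4.52 ± 0.82 (SE), FDR 2.18e-04) and 27.4-fold higher than capillaries (log2 fold change 4.78 ± 0.89 (SE), FDR 2.56e-04). Glomeruli were 12.8-fold higher than whole kidney (log2 fold change 3.68 ± 0.79 (SE), FDR 0.00408) and 15.3-fold higher than capillaries (log2 fold change 3.93 ± 0.85 (SE), FDR 0.0026). Capillary 93 held most of the capillary sum, and without it the folds over capillaries were 62.2 in arterioles and 34.7 in glomeruli. Arterioles also passed the threshold against venules (FDR 0.0353), but not without arteriole 100 or venule 93, 98 or 100 (FDR up to 0.117). No difference was called between arterioles and glomeruli (log2 fold change 0.84 ± 0.76 (SE), FDR 0.62). Markers of 12 pan-endothelial genes were also highest in these 2 compartments, and smooth muscle markers took 2.05 to 3.53% of arteriole counts and 0.247 to 0.383% of glomerular counts; their part in the Slco2a1 level was not tested.

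Slco1a1 (ENSMUSG00000041698, chromosome 6, 141907282 to 141946962, minus strand), a multispecific carrier of steroid conjugates and other anions, had 327, 371, 402 and 735 CPM in capillaries and 133, 138, 177 and 238 in whole kidney. Venules had 46.7, 28.9, 34.1 and 4.15 CPM, arterioles 4.05, 4.51, 21.02 and 71.4 and glomeruli 14.2, 3.87, 13.9 and 1.65. Venules fell well below whole kidney, among the arterioles. Glomerular levels were below those of capillaries (log2 fold change -5.77 ± 1.04 (SE), FDR 2.93e-04) and whole kidney (log2 fold change -4.35 ± 0.86 (SE), FDR 0.00154), and arterioles were lower than capillaries (log2 fold change -4.18 ± 0.97 (SE), FDR 0.00334; -5.54 without arteriole 100). Capillaries were higher than venules (log2 fold change 4.00 ± 0.96 (SE), FDR 0.0446) with all libraries in the fit.

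Its neighbour Slco1a6 (ENSMUSG00000079262, chromosome 6, 142085761 to 142208521, minus strand) had 209, 183, 349 and 109.5 CPM in capillaries, 136, 91.00, 108 and 107 in whole kidney and 179, 64.2, 124 and 15.1 in venules. Glomeruli had 14.4, 35.5, 30.5 and 3.09 CPM and arterioles 1.71, 2.58, 36.1 and 1.07. Arteriole 98 stood just above the highest glomerular library, and the other 3 arteriole libraries were below all 4 of them. Arteriolar levels were below those of capillaries (log2 fold change -4.35 ± 1.16 (SE), FDR 0.0109) and of whole kidney (FDR 0.0196, lost without whole kidney 93). Without arteriole 98 the first was -6.88 and the second -5.94. The Slco1 genes of chromosome 6 are close relatives whose reads could be split.

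Slco3a1 (ENSMUSG00000025790, chromosome 7, 74275419 to 74554780, minus strand), which carries prostaglandins and thyroxine, had 751, 472, 589 and 1093 CPM in capillaries and 246, 338, 118 and 471 in venules. Whole kidney had 196, 207, 248 and 295 CPM, arterioles 282, 105, 211 and 205 and glomeruli 139, 108, 116 and 86.7. Capillaries alone stood clear of the rest, just above the highest venule library, and arterioles overlapped whole kidney. The glomerular level was below that of capillaries (log2 fold change -2.69 ± 0.54 (SE), FDR 0.00116), and so was the arteriolar level (log2 fold change -1.85 ± 0.52 (SE), FDR 0.0169), a call lost without capillary 100 (FDR 0.0682).

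The monocarboxylate family had the most arteriole calls by number. Of its 12 tested members, 6 were lower than in whole kidney (5.50% of all genes) and 7 lower than in capillaries (4.96%). By share, more were lower than in capillaries in the organic cation group (3 of 4) and in Slc17 (2 of 3). Slc16a12 (ENSMUSG00000009378, chromosome 19, 34668403 to 34747289, minus strand), a creatine carrier, was the clearest: the 4 arteriole libraries held 7 counts together, which is 0, 0.483, 0.112 and 0.535 CPM. Glomeruli had 33.96, 63.4, 22.5 and 54.5 CPM, whole kidney 50.6, 38.01, 40.98 and 38.4, venules 68.3, 13.2, 63.5 and 50.9 and capillaries 37.9, 44.5, 90.6 and 157. The other 4 groups overlapped each other, and arterioles stood below all 16 of their libraries. Arterioles were 149-fold lower than whole kidney (log2 fold change -7.14 ± 1.31 (SE), FDR 2.12e-04) and lower than glomeruli (log2 fold change -7.19 ± 1.57 (SE), FDR 0.00463), venules (log2 fold change -7.36 ± 1.58 (SE), FDR 0.00318) and capillaries (log2 fold change -8.11 ± 1.63 (SE), FDR 6.45e-04), and all 4 calls stood with any 1 library left out. By ratio of means to whole kidney, the proximal tubule markers were 3.31-fold lower in arterioles and 5.43-fold lower in glomeruli. The glomerular mean of Slc16a12 was 1.04 times that of whole kidney. These ratios were not tested against each other, and the part of tubule content in the Slc16a12 levels was not tested.

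Slc16a1 (MCT1; ENSMUSG00000032902, chromosome 3, 104638668 to 104658462, plus strand), a lactate and pyruvate carrier, had 0.639, 0.483, 0 and 0.535 CPM in arterioles and 20.8, 20.04, 25.4 and 33.2 in whole kidney. Capillaries had 10.3, 44.1, 75.3 and 61.8 CPM, venules 46.4, 35.1, 2.96 and 28.7 and glomeruli 21.6, 5.41, 20.9 and 0.882. Arterioles were below every library of the other groups, and the 3 other compartments varied from near the arteriole level to above whole kidney. The arteriolar level was below that of whole kidney (log2 fold change -5.89 ± 1.63 (SE), FDR 0.0157) and capillaries (FDR 0.0218).

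Slc16a6 (MCT7; ENSMUSG00000041920, chromosome 11, 109450855 to 109473598, minus strand), a ketone body carrier that overlaps Amz2 on the opposite strand, had 1.07, 0.483, 0.562 and 0.178 CPM in arterioles and 28.8, 42.4, 22.8 and 33.9 in whole kidney. Capillaries had 78.2, 140.0, 74.3 and 0.391 CPM, venules 58.8, 53.96, 14.8 and 0.67 and glomeruli 19.2, 0.663, 7.87 and 10.8. Library 100 of capillaries and of venules fell to the arteriole level, while the rest of both groups stayed at 14.8 CPM or more. Lower levels in arterioles were called against capillaries (log2 fold change -6.97 ± 1.96 (SE), FDR 0.016), a call lost without capillary 96 (FDR 0.0503), and against whole kidney (log2 fold change -5.78 ± 1.60 (SE), FDR 0.0162).

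Another 4 called Slc16 members were Slc16a9, a carnitine carrier, Slc16a10 (TAT1), which carries aromatic amino acids, Slc16a11 and Slc16a13. Slc16a9 averaged 259.6 ± 67.9 CPM in capillaries, 64.7 ± 1.94 CPM in whole kidney and 17.1 ± 29.6 CPM in arterioles (SD, n = 4 each; FDR 0.0164 for arterioles against capillaries), and 61.5 CPM of the arteriole sum came from library 96, without which the log2 fold change went from -3.93 to -6.78. Slc16a13 averaged 24.6 ± 5.43 CPM in whole kidney and 0.458 ± 0.179 CPM in arterioles (FDR 0.0251, lost without arteriole 98 or whole kidney 96, 98 or 100). Slc16a11, 371 bases from Slc16a13, averaged 41.8 ± 29.6 CPM in capillaries and 0.346 ± 0.212 CPM in arterioles (FDR 0.0462). Slc16a10 averaged 16.2 ± 2.72 CPM in whole kidney, 0.294 ± 0.206 CPM in arterioles (FDR 0.0479) and 57.3 ± 72.6 CPM in venules, where the values were 7.62, 59.6, 2.78 and 159 CPM and 1 library held most of the sum. The calls of Slc16a10 and Slc16a11 were lost when any 1 of the 8 libraries compared was left out (FDR up to 0.0883 and 0.101).

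**Figure D4:**
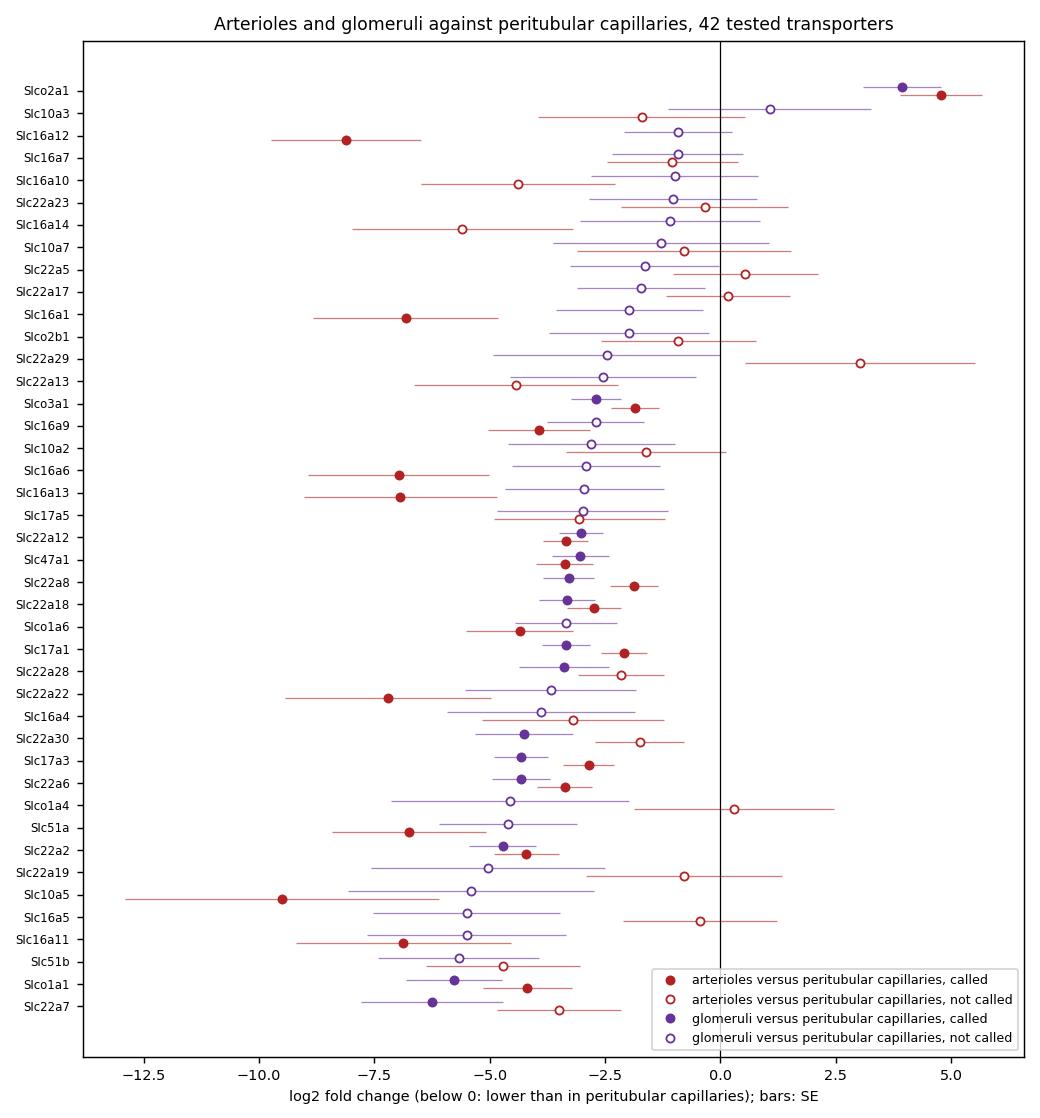
Log2 fold change with SE of 42 of the 44 tested transporters in arterioles (red) and glomeruli (purple) against peritubular capillaries, filled where called (20 lower and 1 higher in arterioles, 13 lower and 1 higher in glomeruli, of those drawn), ordered by the glomerular value. Slco2a1 alone is filled on the right, and Slc16a12 is far left in arterioles but not called in glomeruli; both comparisons share the capillary libraries.

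Among bile acid transporters, 6 of 9 members were tested and 2 were called. Slc51a (ENSMUSG00000035699, chromosome 16, 32474504 to 32487879, minus strand), a subunit of the basolateral heteromer OSTα-OSTβ, had 1.28, 1.13, 0.562 and 0.892 CPM in arterioles and 3.61, 0.663, 10.3 and 2.76 in glomeruli. Capillaries had 72.8, 125, 108 and 115 CPM, whole kidney 57.6, 51.8, 46.1 and 47.8 and venules 18.6, 5.83, 22.2 and 17.8. Capillaries, whole kidney and venules followed each other without overlap, and all 4 arteriole libraries were below the lowest venule library. Arterioles were lower than whole kidney (log2 fold change -5.71 ± 1.26 (SE), FDR 0.00215) and capillaries (log2 fold change -6.75 ± 1.67 (SE), FDR 0.00595). Slc51a overlaps Pcyt1a on the opposite strand by 567 bases.

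Its partner gene Slc51b was also ordered capillaries, whole kidney and venules by mean (96.8 ± 43.7 CPM in capillaries, 45.3 ± 5.92 CPM in whole kidney, 19.2 ± 12.6 CPM in venules, 3.67 ± 6.10 CPM in arterioles and 1.88 ± 1.64 CPM in glomeruli, SD, n = 4 each) without a call, and was named after its values were seen. Slc10a5 (ENSMUSG00000058921, chromosome 3, 10331734 to 10335656, minus strand), an orphan member of the bile acid family, had 62.5, 0, 80.1 and 0 CPM in capillaries, 0.224, 0, 22.4 and 0 in venules and 4.15, 6.57, 3.77 and 5.48 in whole kidney. Arterioles held a single count and glomeruli had 3.01, 0, 0.156 and 0.11 CPM. The capillary mean came from libraries 93 and 98, with none in the other 2, and whole kidney varied little. Slc10a5 overlaps Gm38303 on the same strand by 3923 bases, so its reads could be ambiguous between these genes. Its call of arterioles against capillaries (FDR 0.0488) was lost without any 1 arteriole library or without capillary 93 or 98 (FDR up to 0.101).

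Set against whole kidney by the ratio of means, the 28 called members had a median ratio of 2.26 in peritubular capillaries, where the summed proximal tubule markers had 2.30, and 20 of the 28 lay within 1.5 times of the marker ratio. In venules 11 of 28 did so, around a marker ratio of 0.734, in glomeruli 8 around 0.184 and in arterioles 5 around 0.302. In capillaries 4 called members lay below that range, Slco2a1 (0.839), Slc22a22 (0.835), Slc16a10 (0.405) and Slc22a13 (0.255), and 4 above it, Slc10a5 (7.14), Slc16a9 (4.01), Slc22a8 (3.67) and Slc22a28 (3.54). Of the 28, 25 were called lower in arterioles or glomeruli than in capillaries, so the called members' high capillary ratio is partly set by how they were chosen. Of the 23 tested members without a call, 6 lay within 1.5 times of the marker ratio in capillaries, and their median ratio was 0.919. In arterioles the called members' ratios ran from 0.00527 (Slc22a22) to 23.0 (Slco2a1). These ratios share the whole kidney libraries and were not tested against each other.

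**Figure D5:**
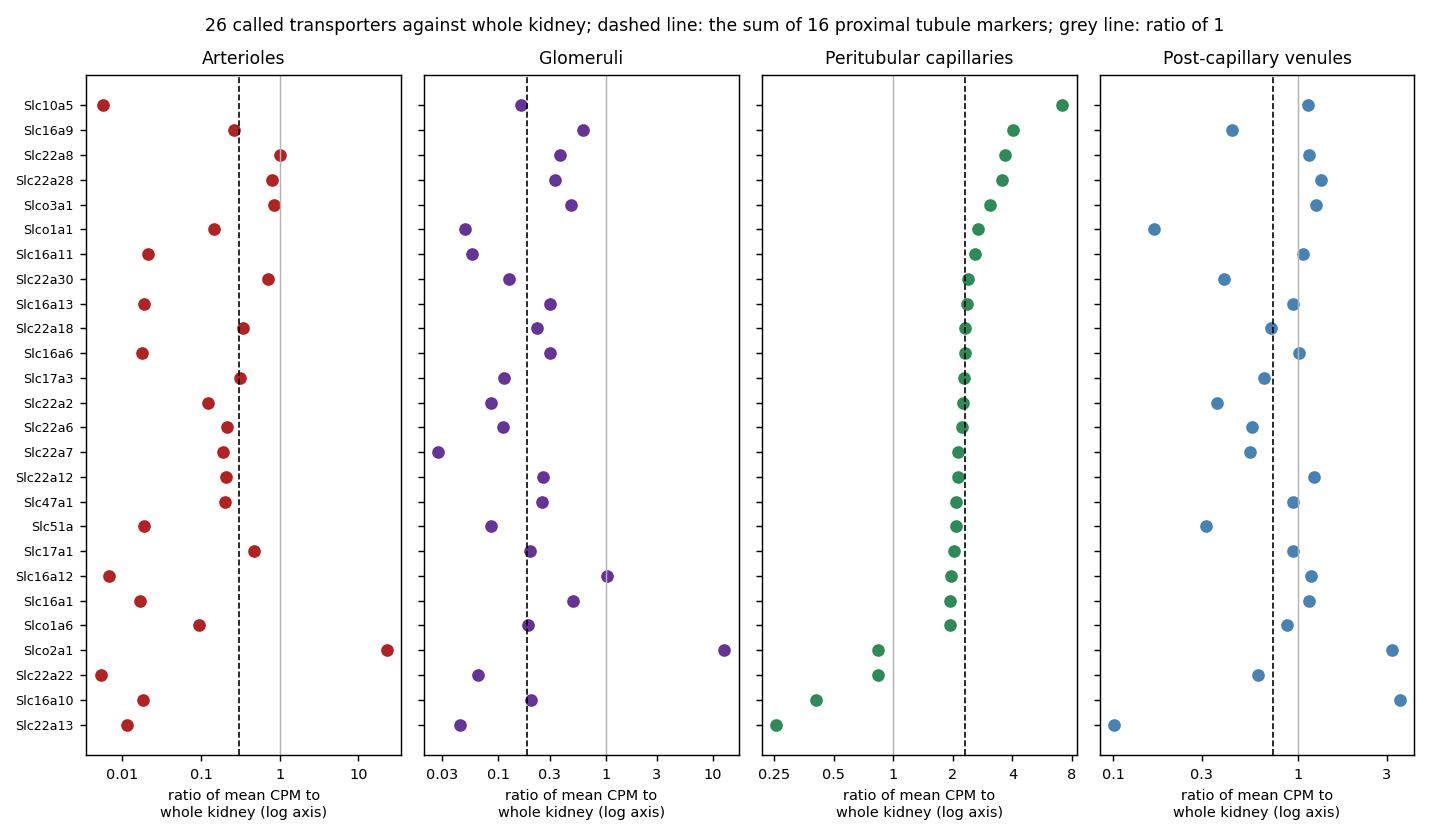
Ratio of mean CPM to whole kidney (log axis) of 26 of the 28 called transporters in each compartment; the dashed line is the summed level of 16 proximal tubule markers (0.302, 0.184, 2.30 and 0.734) and the grey line marks 1. In peritubular capillaries 18 of 26 points lie within 1.5 times of the dashed line, in arterioles 5 do; the arteriole point of Slc10a5 rests on 1 count.

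Libraries of 1 microdissected group varied more than those of whole kidney. Over the 51 tested members, counting those with a group mean of 1 CPM or more, the median coefficient of variation was 16.3% in whole kidney, 64.8% in capillaries, 68.0% in venules, 71.3% in glomeruli and 161% in arterioles. For members at 100 CPM or more it was 12.0% (14 members), 41.5% (18), 23.3% (12), 37.8% (7) and 61.4% (9). A single library held over 75% of the group's sum for 18 of 35 members in arterioles, 10 of 43 in glomeruli, 9 of 46 in venules, 6 of 46 in capillaries and none of 51 in whole kidney. Examples, chosen after their values were seen, are the anion carrier Slc22a29, with 0, 179, 0.112 and 0 CPM in the 4 arteriole libraries, and Slco4c1, with 0, 128, 0 and 0. So the highest group mean of these 2 genes, in arterioles, was set by library 96 alone.

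Of the 23 members tested without a call, the highest group mean lay between 2.30 CPM (Slc17a4 in glomeruli) and 96.8 CPM (Slc51b in capillaries). Among the 15 with counts but no test it was at most 21.3 CPM (Slc16a3, a lactate exporter, in arterioles, with 0, 0, 9.89 and 75.5 CPM). The 8 members with no count in any library were Slc22a20, Slco1a5, Slco5a1, Slco6b1, Slco6c1, Slco6d1, Slc17a6 and Slc17a7, the last pair being vesicular glutamate transporters of neurons. A count of 0 over all 20 libraries allows a level of up to 0.0181 CPM (3 counts of the summed total, counting error only). Another 7 members had between 1 and 20 counts in all.

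Of 24 genes that work with these carriers, 22 were tested between compartments. In glomeruli 10 were lower than in capillaries (2.27% of all genes) and 1 was higher (2.20%). In arterioles 11 were lower (4.96%) and 1 was higher (6.22%). Against whole kidney, 6 of 24 were lower in arterioles (5.50%) and 5 in glomeruli (1.47%), with 1 higher in each (5.78% and 1.59%). The 1 higher gene was in each case Slc9a3r2, a PDZ scaffold, at 654 ± 344 CPM in arterioles, 507 ± 76.4 in glomeruli, and 40.2 ± 6.79 in whole kidney and 25.3 ± 13.6 in capillaries (SD, n = 4 each; FDR 5.19e-06 for arterioles against capillaries). The dicarboxylate carrier Slc13a3, which supplies the exchange substrate of the basolateral organic anion transporters, averaged 1426 ± 370.0 CPM in capillaries, 399.9 ± 106 in whole kidney and 145 ± 79.3 in arterioles (FDR 8.25e-06 for arterioles against capillaries). The apical carrier Slc13a2 averaged 83.02 ± 22.9 CPM in whole kidney and 1.02 ± 0.329 in arterioles (FDR 6.51e-04).

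The sodium-lactate carrier Slc5a12 averaged 3.08 ± 1.93 CPM in arterioles and 89.8 ± 53.9 in glomeruli, a difference that passed the threshold (FDR 0.00158); it was the 1 partner called there, in the same direction as Slc16a12. Atp1b1, a subunit of the sodium pump, was lower in arterioles than in capillaries (log2 -2.01, FDR 2.42e-05). The test called no partner between capillaries and whole kidney, between venules and whole kidney or between capillaries and venules. It called 0.0941%, 0.224% and 0.386% of all genes there. At an unadjusted p under 0.05 edgeR had 7, 1 and 6 of the partners, and the shares of all genes at that p are not given here. DESeq2 called 1, 0 and 2, beside 2.06%, 1.27% and 4.85% of all genes.

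Genes that lie side by side did not all share a pattern. Slc22a6 and Slc22a8 on chromosome 19, Slc17a3 and Slc17a1 on chromosome 13 and Slc16a11 and Slc16a13 on chromosome 11 each had their highest mean in capillaries. For Slc16a13 the capillary values were 101, 88.2, 40.5 and 0.782 CPM, the last below the lowest whole kidney library at 17.9 CPM. In contrast, Slc17a4 lies 159 bases from Slc17a1 on the opposite strand and averaged 0.184 CPM in capillaries, and Slc22a3, 76427 bases from Slc22a2, had 201 counts in all 20 libraries, of which glomerular 100 alone held 152. These neighbours were chosen for their position and their levels were not tested as pairs.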

How the data were processed

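3′ mRNA libraries (QuantSeq) of microdissected compartments were made with a low-input protocol and more PCR cycles than those of whole kidney. Preparation and compartment therefore cannot be told apart in comparisons with whole kidney. Capillaries came from a separate slide with another stain than the other compartments, so slide and stain cannot be told apart from compartment in comparisons with capillaries. The area collected was larger for glomeruli and venules than for arterioles and capillaries. Where these are compared, area and compartment cannot be told apart either. The authors deposited raw read counts per gene, aligned with STAR to GRCm38.p6 and counted with HTSeq; the submitters' notes also name featureCounts and GRCm39 without a role. No molecular identifiers are named in the sources used here. The table had 168 per-sample columns, and 148 of them were left out. The section and letter of a column gave its group.

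Counts were fitted in R 4.3.3 with edgeR 4.0.16 (TMM, filterByExpr by group, quasi-likelihood F test of version 3): all 20 libraries for comparisons with whole kidney and the 16 microdissected ones between compartments. FDR is the Benjamini-Hochberg value over all genes tested, and the fit was tested on simulated data. Alternatives were DESeq2 1.42.0 among others. Per library values are given for up to 4 called members per role with the smallest FDR and for the most abundant member of each role, and for up to 6 called partners means are given; some genes that met this rule are not reported here, but stay in the fits and counts. The members and lists were chosen with earlier results of these data known.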

Additional observations from a re-analysis of the deposited data

Results flagged for a closer look

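For the 18 members given in every library, groups of 4 with a mean of at least 10 CPM were examined for a library far from the other 3 by Dixon's ratio at its 95% critical value, 77 groups in all, of which chance flags about 1 in 20. It marked 6 values. In arterioles, library 100 was far above the rest for Slc17a3 (358 CPM, with the next at 102) and Slc22a8 (726 CPM, next at 206), and it also held the most proximal tubule marker counts of that group (1.61%). Library 98 was far above for Slco1a6 (36.1 CPM, next at 2.58). Glomerular 93 was the highest for Slc47a1 (126 CPM, next at 90.2). Capillary 100 was the highest for Slc22a2 (1937 CPM, next at 1230.0), and venule 93 for Slc22a6 (522 CPM, next at 458). These libraries entered 10 calls of their members, of which 9 stood without the library and 1, Slc22a6 in glomeruli against venules, was lost without venule 93 (FDR 0.0607). The part of tubule content in the arteriole values was not tested.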

How the results depend on the processing

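The 28 called members were followed in the comparison of their smallest FDR through 418 alternative values, and all 418 had the direction reported; 20 of the 28 kept direction and call under every alternative run, and Slc10a5, Slc16a6, Slc16a10, Slc16a11, Slc16a13, Slc22a7, Slc22a28 and Slc22a30 lost the call in at least 1. Counts of called members moved by over 1.5 times as follows, and the cause was not tested. With DESeq2 there were 10 between arterioles and glomeruli (14.1% of all genes), 14 between arterioles and venules (18.1%) and 9 between glomeruli and venules (5.17%). It gave 19 between glomeruli and whole kidney (6.23%) and 6 between capillaries and venules (4.85%). There was 1 each for capillaries (2.06%) and for venules (1.27%) against whole kidney. Over the 10 comparisons DESeq2 called 1.27 to 25.7% of all genes. With the version 4 form of edgeR the same first 5 comparisons gave 2, 7, 8, 19 and 4. The shares of all genes there were 6.93, 9.75, 2.97, 8.1 and 0.427%. With the filter set by mean count there were 9 between arterioles and venules (4.4% of all genes) and 11 between glomeruli and venules (1.62%). There were also 4 between capillaries and venules (0.736%), 5 between capillaries and whole kidney (0.344%) and 2 between venules and whole kidney (0.325%). With no filter there were 3 between capillaries and venules (0.47%) and 1 between capillaries and whole kidney (0.141%). With RLE scaling there were 0 between capillaries and venules (0.246%). With only the 8 libraries compared in the fit there were 0 between arterioles and glomeruli (3.5% of all genes). Arterioles gave 15 against capillaries (7.41%) and 2 against venules (2.87%), and glomeruli 14 against venules (5.68%) and 27 against whole kidney (21.7%). Capillaries had 8 against venules, all higher, beside 0.802% of all genes higher and 0.369% lower. Against whole kidney capillaries had 15, 13 higher and 2 lower, beside 2.47% of all genes higher and 8.39% lower. Venules had 9 against whole kidney, all lower, beside 2.45% higher and 5.92% lower. RLE scaling moved the median log2 difference of all genes by over 0.1 in the 4 arteriole comparisons, at most from 0.27 to 0.55 (arterioles against glomeruli, where all-gene calls went from 160 higher and 105 lower to 237 and 91); no called member changed direction. Leaving out 1 library at a time gave 12 to 19 calls for arterioles and 8 to 11 for glomeruli against whole kidney, 19 to 22 and 13 to 15 against capillaries, 2 to 6 and 2 to 4 against venules, 1 to 2 between arterioles and glomeruli, and 0 in the other 3 comparisons. Of all genes these fits called 5.43 to 10.9% and 1.49 to 1.96% against whole kidney and 7.58 to 10.6% and 2.86 to 3.37% against capillaries. Against venules they called 2.33 to 4.93% and 0.522 to 0.812%, and between arterioles and glomeruli 1.29 to 2.29%.

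The study cut its compartments from slides made per mouse, so libraries of different groups can share a mouse. The column numbers 93, 96, 98 and 100 recur in every group, but the labels do not tie them to a replicate. Deviations of same-numbered libraries from their group means were hardly correlated (at most 0.0714 in any of 10 pairs of groups). A low correlation over all tested genes cannot show that libraries are unpaired. The main fits took all libraries as independent. With the number as a replicate block, 7 members were called between arterioles and venules, beside 3.91% of all genes. The other 9 counts stayed within 1.5 times, but not with the same genes: 7 of 79 calls were lost and 15 gained. Lost were Slco1a1 between capillaries and venules (FDR 0.0574; Slc22a2 was called instead), Slc10a5, Slc16a11, Slc16a13 and Slc22a22 between arterioles and capillaries, Slc16a10 between arterioles and whole kidney, and 1 between glomeruli and venules.

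No molecular identifiers are named in the sources used here, and the shallowest library held 4639090 counts. At these depths 15 members with counts passed neither count filter and were not tested.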
